A study of Mus musculus with 6 samples.

Results

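The genes of the B cell receptor and of the B lineage were followed in the non-adipocyte cells of mesenteric fat, its stromal vascular fraction, from obese mice given propolis or vehicle. The set holds 33 genes chosen by name for their place in the receptor, its signalling, the B lineage programme or antibody secretion. A probe was matched through its accession to 31 of the 33 genes, by 38 probes of the 55681 on the array. Of these, 30 genes were tested, among 25777 genes and transcripts in all. No probe was matched to Ighm or Igha, the IgM and IgA heavy chain genes, and Pax5 was too dim to enter the test. A pair of probes was present for 7 members, and both probes of each pair gave the same direction. Pax5 is among the 7, and its direction rests on probes too dim to enter.

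All animals were male mice of the strain C57BL/6JHamSlc-ob/ob, which lack functional leptin and become obese. The propolis group received Brazilian propolis, a resinous bee product, by intraperitoneal injection, each dose 100 mg/kg, with 2 injections a week over 12 weeks. The vehicle group received the carrier, which contained a little DMSO and ethanol, over the same 12 weeks. Cells were released from the fat with collagenase, red cells were lysed, and RNA of the remaining cells was hybridised to 1-colour arrays, 3 per group. The labels describe the 3 samples of each group as biological replicates, but give neither the mice per sample nor their age. The p-values therefore measure the spread between these samples. The fraction was not sorted, so it held every non-adipocyte cell type of the depot and whatever came with it in dissection. In such a mixture, fewer B cells and less RNA per B cell cannot be told apart.

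The B cell receptor is a membrane immunoglobulin held together with the signalling chains encoded by Cd79a and Cd79b. Antigen binding lets Src-family kinases and SYK act on those chains, the adaptor BLNK brings in BTK, and coreceptors such as CD22 and CD72 restrain the signal. EBF1 and PAX5 keep the B cell programme on, and PRDM1 and IRF4 take part in its replacement by the programme of antibody-secreting plasma cells. Mesenteric fat contains lymph nodes and lymphoid clusters, and its stromal vascular fraction usually contains B cells.

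The start regions of 5 members are shown as RefSeq gives them for GRCm38.p6. Each runs from 250 bases before the gene start to 50 after it, 5′ to 3′ on the strand of the gene. Capitals mark motifs found on either strand: the octamer ATGCAAAT of OCT factors, the EBF core TCCCNNGGG, the ETS motif GAGGAAGT of PU.1 and SPI-B, and the E-box CAGGTG of E2A. Faim3 had the largest difference of all tested members, and its region, chr1:130865527-130865826 on the plus strand, has an E-box. Cd79a, a receptor chain, at chr7:24897247-24897546 on the plus strand, has an E-box. Cd22, a coreceptor, at chr7:30878979-30879278 on the minus strand, has an E-box and a pair of overlapping EBF matches. Fcrl1, a surface protein, at chr3:87376137-87376436 on the plus strand, has an ETS match. Blnk, the adaptor, at chr19:40994172-40994471 on the minus strand, has an E-box and an octamer. It is shown as a member whose levels varied much less between vehicle arrays.
Faim3: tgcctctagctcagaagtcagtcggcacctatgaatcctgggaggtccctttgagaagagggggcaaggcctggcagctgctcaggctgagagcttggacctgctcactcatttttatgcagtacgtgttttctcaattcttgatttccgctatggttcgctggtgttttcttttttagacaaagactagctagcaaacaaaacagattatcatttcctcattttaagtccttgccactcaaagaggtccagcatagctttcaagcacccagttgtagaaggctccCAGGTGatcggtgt
Cd79a: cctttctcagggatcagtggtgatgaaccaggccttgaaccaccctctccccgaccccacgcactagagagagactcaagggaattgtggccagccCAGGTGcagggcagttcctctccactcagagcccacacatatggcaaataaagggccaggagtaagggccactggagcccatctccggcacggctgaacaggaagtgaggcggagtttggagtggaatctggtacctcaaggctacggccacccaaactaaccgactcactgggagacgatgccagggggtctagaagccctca
Cd22: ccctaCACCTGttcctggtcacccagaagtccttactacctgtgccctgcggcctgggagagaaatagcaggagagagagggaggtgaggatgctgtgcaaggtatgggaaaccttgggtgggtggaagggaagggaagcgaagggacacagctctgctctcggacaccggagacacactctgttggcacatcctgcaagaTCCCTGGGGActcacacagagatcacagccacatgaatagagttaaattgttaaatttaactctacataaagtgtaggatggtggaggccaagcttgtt
Fcrl1: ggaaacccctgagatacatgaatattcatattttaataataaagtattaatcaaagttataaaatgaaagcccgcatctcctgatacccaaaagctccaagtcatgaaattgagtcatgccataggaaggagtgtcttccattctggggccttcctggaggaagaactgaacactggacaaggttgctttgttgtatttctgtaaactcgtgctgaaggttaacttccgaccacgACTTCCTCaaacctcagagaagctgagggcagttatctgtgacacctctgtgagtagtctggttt
Blnk: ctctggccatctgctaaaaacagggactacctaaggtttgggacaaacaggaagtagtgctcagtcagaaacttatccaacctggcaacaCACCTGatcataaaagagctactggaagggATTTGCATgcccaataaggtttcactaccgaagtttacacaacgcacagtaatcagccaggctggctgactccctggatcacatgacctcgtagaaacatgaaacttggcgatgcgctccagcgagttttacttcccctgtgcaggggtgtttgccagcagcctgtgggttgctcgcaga

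The promoter table held 28 entries for 24 of the members, among 32851 entries of the same 300 bases. The E-box was present in 13 of the 28 member entries (46.4%) and in 20.2% of all entries. The octamer was present in 1 member entry, that of Blnk, and in 1.74% of all entries. The ETS motif was present in 3 member entries, those of Cd37, Cd72 and Fcrl1, and in 3.20% of all, and the EBF core in 2, those of Cd22 and Sdc1, and in 6.56% of all. These matches describe letters in a fixed window and were not related to binding or to the levels of the members.

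Levels are given as log2 intensity relative to the 75th percentile of the same array, so that a step of 1 is a 2-fold step in intensity. Differences are propolis minus vehicle on that scale, with 95% intervals and adjusted p-values from limma, over all 25777 genes and transcripts. Across all of them 215 passed an adjusted p of 0.05, 186 higher and 29 lower with propolis. No spot was saturated, and 61.1% to 66.7% of the spots of an array stood well above background. Replicates 1 and 2 of both groups were on slide 1, and the replicates numbered 3 on slide 2. Genes of pancreatic acinar cells were high in vehicle 2 and genes of intestinal epithelium in vehicle 3, with list means of 4.90 and 4.77. On the other arrays those means were between -3.79 and -2.66 and between -3.28 and -0.45, and all results below include those 2 arrays unless stated.

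The mean level was lower with propolis for 26 of the 30 tested members and higher for 4, but no member passed the test. In limma, 0 of 30 members had an adjusted p under 0.05, where 0.834% of all genes and transcripts did, so the members' count was near the background. At an unadjusted p under 0.05, 8 members were lower (26.7%) against 4.48% of all, namely Ms4a1, Cd37, Cd24a, Faim3, Blnk, Syk, Spib and Irf4. In the higher direction 0 members reached that level, against 7.24% of all. The vehicle and propolis arrays did not overlap for 6 members, all lower with propolis (20.0%), against 6.62% of all, and for 0 members in the higher direction, against 10.8%. Both shares of lower members were above the background, but the members were read on the same 6 arrays and are not independent of each other. The count of 8 rested on few arrays, being 4 without vehicle 1, 2 without vehicle 2, 18 without vehicle 3, 3 without propolis 1 and 5 without propolis 2. Cd24a and Irf4 were among those members whichever single array was left out. The median difference over the members was -0.89, against -0.0041 over all genes and transcripts, and it was -0.54 without vehicle 2.

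**Figure D1:**
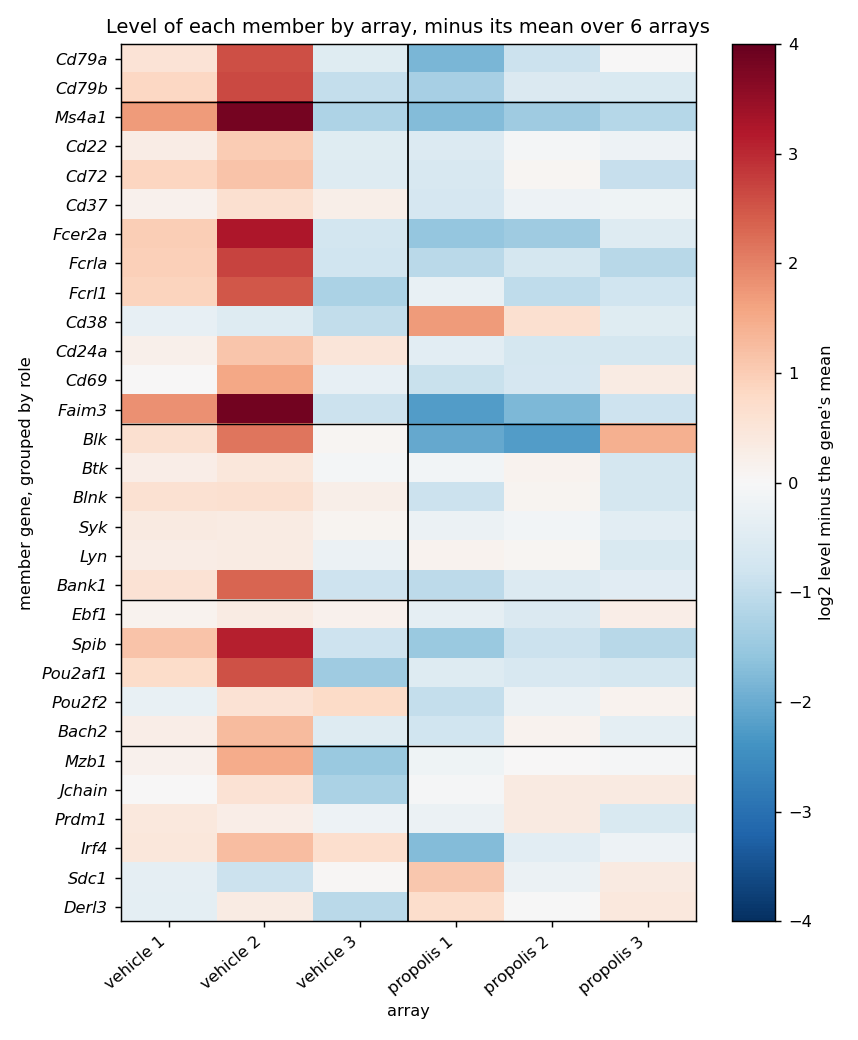
Colours show the log2 level of each of the 30 tested members (rows, grouped by role) on each of the 6 arrays (columns), minus that gene's mean over the 6 arrays. Vehicle 2 is the highest array for 24 of the 30 members, against 3917 of all 25777 genes and transcripts. Vehicle 3 is within the range of the propolis arrays for 17 members, against 12070 of all.

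The receptor chains are encoded by Cd79a and Cd79b, which carry the signal of the membrane immunoglobulin into the cell. Levels of Cd79a were -3.12, -1.11 and -4.16 in vehicle 1, 2 and 3 and -5.51, -4.55 and -3.65 in propolis 1, 2 and 3. Vehicle 2 was high, vehicle 1 came next, and vehicle 3 lay inside the propolis range. The difference was -1.77 (95% interval -3.80 to 0.26, adjusted p = 0.498 in limma). Cd79b gave 3.11, 4.92 and 1.33 in the vehicle arrays and 0.97, 1.72 and 1.67 in the propolis arrays. Its order was the same at the top, with the groups overlapping through vehicle 3, and its difference was -1.67 (-3.74 to 0.40, adjusted p = 0.542).

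Among surface proteins, Ms4a1, which encodes CD20, and Faim3, the Fc receptor for IgM now named Fcmr, showed the widest spread. Ms4a1 stood at 1.53, 3.68 and -1.39 in vehicle 1, 2 and 3 and at -1.89, -1.59 and -1.31 in propolis 1, 2 and 3. Faim3 stood at 2.10, 4.15 and -0.58 in the vehicle arrays and at -1.95, -1.51 and -0.53 in the propolis arrays. For both genes vehicle 1 and vehicle 2 were well above the rest, and vehicle 3 overlapped with propolis. Against the mean of vehicle 3 and the 3 propolis arrays, vehicle 2 was 37.5-fold higher for Ms4a1 and 39.2-fold for Faim3, and vehicle 1 was 8.42-fold and 9.43-fold higher. The group difference was -2.87 (-5.72 to -0.02, adjusted p = 0.425) for Ms4a1 and -3.22 (-5.98 to -0.45, adjusted p = 0.347) for Faim3. Without vehicle 1 and vehicle 2, a pair left out after its levels had been seen, these differences were -0.21 and -0.75.

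Another 3 surface genes of restricted expression had the same 2 arrays at the top. Fcer2a, the low-affinity IgE receptor CD23, gave -1.24, 1.02 and -2.96 in the vehicle arrays and -3.74, -3.62 and -2.72 in the propolis arrays. Fcrla, an Fc receptor-like protein kept inside the cell, gave -0.06, 1.69 and -1.81 with vehicle and -2.09, -1.72 and -2.13 with propolis. Fcrl1, an Fc receptor-like surface protein whose start region is printed above, gave -2.08, -0.48 and -4.26 with vehicle and -3.29, -4.01 and -3.77 with propolis. In each case vehicle 2 was highest, vehicle 1 followed and the groups overlapped, though vehicle 3 was inside the propolis range for Fcer2a and Fcrla and below it for Fcrl1. The differences were -2.30 (-4.62 to 0.02) for Fcer2a, -1.92 (-3.90 to 0.06) for Fcrla and -1.42 (-3.58 to 0.75) for Fcrl1, with adjusted p-values from 0.431 to 0.639.

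Coreceptors that restrain signalling differed less. Cd22, an inhibitory lectin, gave 0.25, 0.96 and -0.53 in the vehicle arrays and -0.62, -0.15 and -0.27 in the propolis arrays, with a difference of -0.57 (-1.51 to 0.36, adjusted p = 0.664). Cd72 gave 2.94, 3.20 and 1.54 with vehicle and 1.44, 2.16 and 1.14 with propolis, with a difference of -0.98 (-2.18 to 0.22, adjusted p = 0.537). Vehicle 1 and vehicle 2 were again the highest arrays for both, and vehicle 3 lay among the propolis arrays.

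Cd37 and Cd24a differed from these in that all 3 vehicle arrays were above all 3 propolis arrays. Cd24a, a small anchored surface glycoprotein that many immature and epithelial cells also make, stood at 1.66, 2.56 and 1.94 with vehicle and at 1.03, 0.76 and 0.73 with propolis. Its difference was -1.21 (-1.86 to -0.56), a 2.32-fold lower intensity, with an unadjusted p of 0.00354 and an adjusted p of 0.133 in limma, the lowest of any member. On slide 1 the difference was -1.22 and on slide 2 -1.21. The slide 2 value sets propolis 3 against vehicle 3 alone, the array with intestinal genes. Cd24a was highest in vehicle 2, the array with acinar genes. The part of epithelial cells in its levels was not tested. Cd37, a tetraspanin of leukocytes, stood at 2.54, 2.99 and 2.61 with vehicle and at 1.68, 2.17 and 2.20 with propolis, a difference of -0.70 (-1.25 to -0.15, adjusted p = 0.299).

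Cd38, an enzyme that degrades NAD and is present on many leukocytes, was the one surface member with a higher mean after propolis. Its levels were 2.11, 1.91 and 1.46 with vehicle and 4.13, 3.08 and 1.95 with propolis, so that propolis 1 and propolis 2 were high and propolis 3 lay among the vehicle arrays. The difference was 1.22 (-0.09 to 2.53, adjusted p = 0.461). Cd69, an early activation marker of lymphocytes, gave -0.43, 1.09 and -0.77 with vehicle and -1.33, -1.13 and -0.11 with propolis, with overlap and a difference of -0.81 (-2.17 to 0.55, adjusted p = 0.673).

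**Figure D2:**
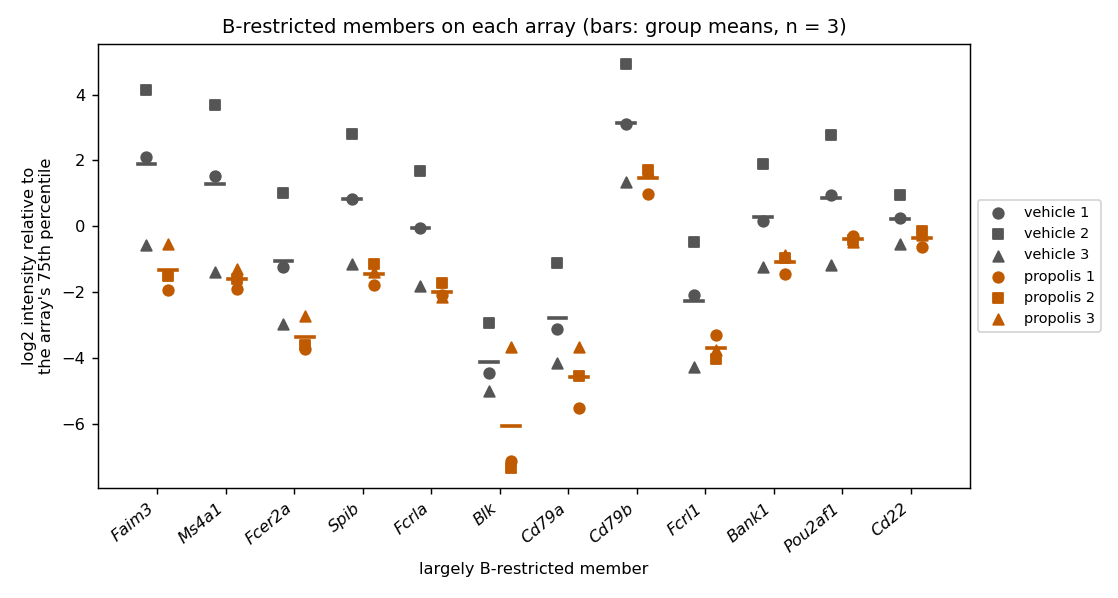
Points are the log2 levels of the 12 tested members of largely B-restricted expression, relative to each array's 75th percentile, by array (marker shape is the replicate number, colour the group), and bars are group means of 3 arrays. Vehicle 2 is the highest array for all 12 genes, and for Ms4a1 it stands at 3.68 against -1.39 in vehicle 3.

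The kinases and adaptors include genes that many myeloid cells also use. Blk, a Src-family kinase of B cells, gave -4.45, -2.93 and -5.00 in the vehicle arrays and -7.13, -7.34 and -3.68 in the propolis arrays. It stood well above background on all 3 vehicle arrays and on 1 propolis array, propolis 3, so its difference of -1.92 (-4.50 to 0.67, adjusted p = 0.582) leans on signals below that limit. Bank1, a scaffold protein of B cells, gave 0.16, 1.91 and -1.23 with vehicle and -1.46, -0.97 and -0.86 with propolis, a difference of -1.38 (-3.18 to 0.43, adjusted p = 0.568). Both genes again had vehicle 2 highest.

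Blnk and Syk did not overlap between the groups. Blnk, the adaptor that links SYK to BTK, stood at 5.25, 5.29 and 4.88 with vehicle and at 3.79, 4.76 and 3.96 with propolis. Syk, the kinase recruited to the receptor chains, stood at 3.60, 3.58 and 3.34 with vehicle and at 3.03, 3.13 and 2.82 with propolis. For both, the lowest vehicle array was vehicle 3 and it was still above every propolis array. The difference was -0.97 (-1.69 to -0.25, adjusted p = 0.267) for Blnk and -0.51 (-0.94 to -0.09, adjusted p = 0.327) for Syk, and on each slide it was close to that, at -0.99 and -0.92 for Blnk and -0.51 and -0.53 for Syk. Btk, the kinase downstream of BLNK, and Lyn, a Src-family kinase with activating and inhibitory roles, overlapped, with differences of -0.45 (-1.11 to 0.22, adjusted p = 0.627) and -0.27 (-0.95 to 0.41, adjusted p = 0.788).

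Of the transcription factors, Spib, Pou2af1 and Bach2 were highest in vehicle 2 and then vehicle 1. Spib, an ETS factor of B cells and plasmacytoid dendritic cells, gave 0.84, 2.81 and -1.13 with vehicle and -1.77, -1.15 and -1.40 with propolis. The groups did not overlap, but only because vehicle 3 at -1.13 was just above propolis 2 at -1.15, and the difference was -2.28 (-4.51 to -0.04, adjusted p = 0.416). Pou2af1, a coactivator of the OCT factors, gave 0.96, 2.79 and -1.19 with vehicle and -0.29, -0.43 and -0.47 with propolis, so that vehicle 3 was the lowest of all arrays, and its difference was -1.25 (-3.48 to 0.98, adjusted p = 0.693). Ebf1, an early B lineage factor that adipose stromal cells also express, differed by -0.43 (-1.04 to 0.19, adjusted p = 0.616) and its levels lay between 1.43 and 2.33 on all arrays. Pou2f2, the factor OCT2, differed by -0.68 (-1.63 to 0.27, adjusted p = 0.603), and Bach2, a repressor that holds back plasma cell formation, by -0.69 (-1.86 to 0.48, adjusted p = 0.676), with overlap for both. Bach2 gave -0.64, 0.36 and -1.43 with vehicle and -1.71, -0.78 and -1.29 with propolis.

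Pax5, the factor that maintains B cell identity, had 2 probes, and neither entered the test. The brighter stood well above background on vehicle 1 and vehicle 2 alone, at -4.79 and -3.03, and read -6.65 in vehicle 3 and -6.27, -6.50 and -6.21 in the propolis arrays. The other probe was not well above background on any array.

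The plasma cell genes varied from each other. Jchain, the joining chain of IgA and IgM polymers, stood at 4.76, 5.30 and 3.47 with vehicle and at 4.67, 5.10 and 5.10 with propolis. Mzb1, a chaperone partner of antibody assembly, stood at 0.58, 1.90 and -1.09 with vehicle and at 0.24, 0.43 and 0.37 with propolis, and Derl3, which works in the removal of misfolded proteins from the endoplasmic reticulum, at -0.68, 0.01 and -1.38 with vehicle and at 0.41, -0.31 and 0.12 with propolis. For all 3, vehicle 3 was below every propolis array. Mzb1 had vehicle 2 and then vehicle 1 above every propolis array, as Pou2af1 did, Jchain was also highest in vehicle 2, and Derl3 was highest in propolis 1. The differences were 0.44 (-0.69 to 1.58) for Jchain, -0.11 (-1.81 to 1.58) for Mzb1 and 0.75 (-0.18 to 1.69) for Derl3, with adjusted p-values from 0.544 to 0.969. Their median was 0.44, and it was 0.84 without vehicle 2 and -0.08 without vehicle 3.

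Irf4, a factor with roles in plasma cells, activated lymphocytes and some myeloid cells, behaved differently from these 3 genes. It stood at 0.15, 0.92 and 0.35 with vehicle and at -2.06, -0.74 and -0.50 with propolis, without overlap. Its difference was -1.58 (-2.66 to -0.49), a 2.98-fold lower intensity, with an unadjusted p of 0.0115 and an adjusted p of 0.232 in limma. It was -1.94 on slide 1 and -0.86 on slide 2. Prdm1, the repressor that drives plasma cell formation, differed by -0.31 (-1.05 to 0.43, adjusted p = 0.769), and Sdc1, the plasma cell surface proteoglycan that epithelial cells also carry, by 0.78 (-0.17 to 1.74, adjusted p = 0.529), both with overlap.

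**Figure D3:**
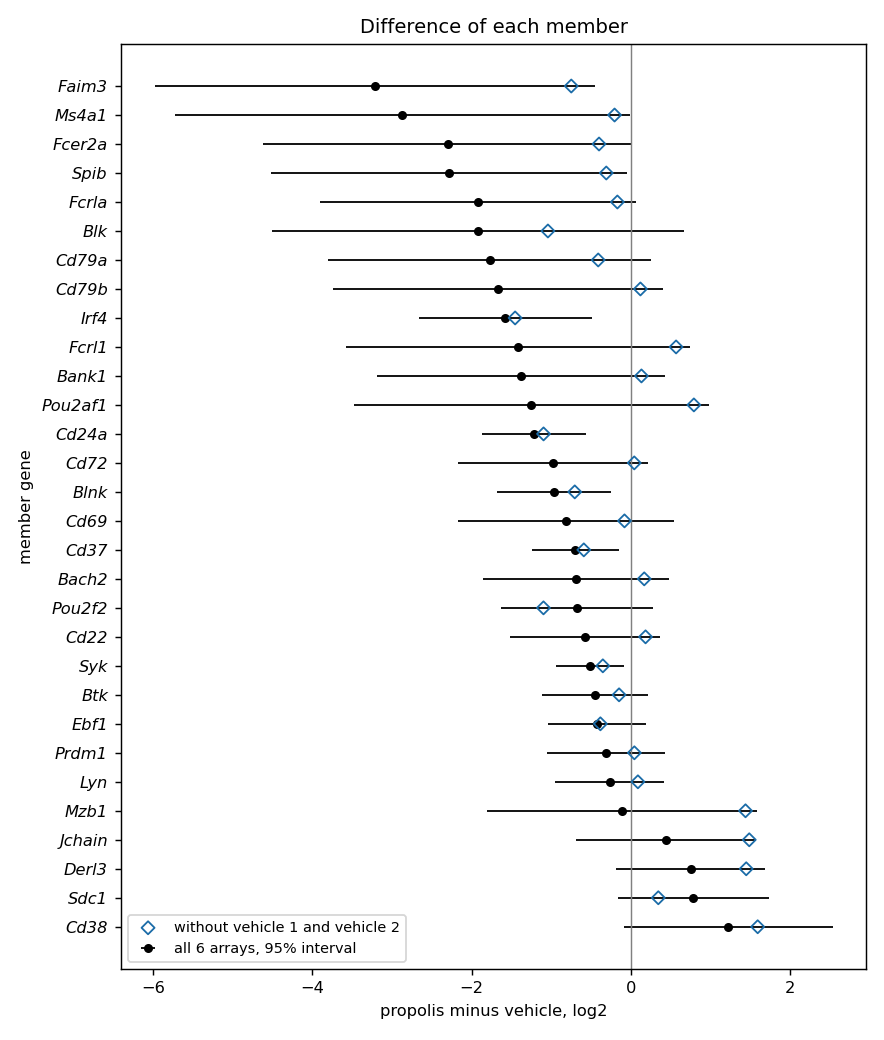
Filled points are the differences in log2 level, propolis minus vehicle, of the 30 tested members over all 6 arrays with their 95% intervals, and open diamonds are the differences without vehicle 1 and vehicle 2. Intervals of 8 members exclude 0. Vehicle 1 and vehicle 2 were left out after their levels had been seen, and each diamond sets vehicle 3 alone, the array with intestinal genes, against the 3 propolis arrays. The diamonds of Cd24a (-1.10) and Irf4 (-1.45) lie near their points, and that of Ms4a1 lies at -0.21 against -2.87.

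Grouped by how widely they are expressed, from general knowledge, the members fell into 3 groups. For the 12 tested genes of largely B-restricted expression, the mean level was -0.17, 1.62 and -1.91 in vehicle 1, 2 and 3 and -2.40, -2.11 and -1.59 in propolis 1, 2 and 3. Vehicle 2 was the highest array for 12 of these 12 genes, where it was highest for 3917 of all 25777 genes and transcripts. Vehicle 1 and vehicle 2 were both above every other array for 11 of the 12, against 3621 of all. Vehicle 3 was inside the range of the propolis means. The median difference was -1.85 over all arrays, -0.99 without vehicle 2 and -0.19 without vehicle 1 and vehicle 2, a pair left out after its levels had been seen.

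The 15 members that other cell types also express had mean levels of 1.36, 1.72 and 1.14 with vehicle and 0.82, 1.04 and 0.83 with propolis. Their median difference was -0.68, or -0.36 without vehicle 2, and 5 of the 15 did not overlap, all lower with propolis, against 6.62% of all genes and transcripts. Vehicle 2 was the highest array for 10 of the 15, and vehicle 1 and vehicle 2 were both above every other array for 6, so the top arrays were in part shared with the restricted members. For the 3 tested genes of antibody-secreting cells the mean levels were 1.55, 2.40 and 0.33 with vehicle and 1.77, 1.74 and 1.86 with propolis. The 3 groups were not tested against each other.

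The slides differed in the size of the median difference and in its sign. On slide 1, with 2 arrays of each group, 27 of the 30 members were lower with propolis and the median difference was -1.16. On slide 2, with 1 array of each group, 12 were lower and the median was 0.12. Over all genes and transcripts, 13185 of 25777 were lower on slide 1, with a median of -0.015. On slide 2, 10796 of them were lower, with a median of 0.070. The members' slide 2 values were thus near the background. For the 12 restricted members the medians on slide 1 and slide 2 were -2.81 and 0.30, with 12 and 2 of them lower. Slide 2 holds 1 array per group, so no test can be made within it, and vehicle 3, its vehicle array, is also the one with intestinal genes.

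**Figure D4:**
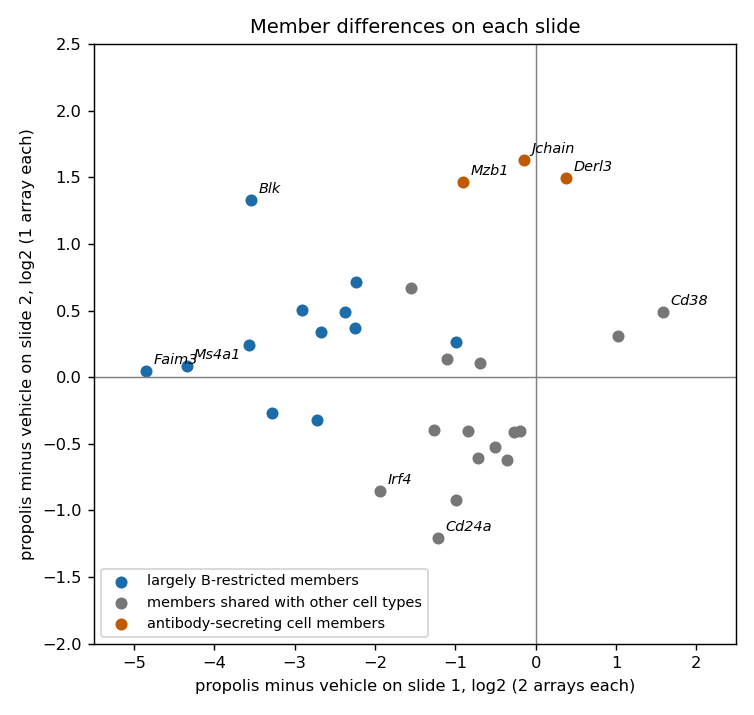
Each point is 1 of the 30 tested members, placed by its propolis minus vehicle difference in log2 level on slide 1 (horizontal, 2 arrays per group) and on slide 2 (vertical, 1 array per group), coloured by breadth of expression. Faim3 lies at -4.85 and 0.05, Cd24a at -1.22 and -1.21, and Jchain at -0.15 and 1.63.

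Other genes of the pathway were read from wider lists, and none of them passed in the main fit, which had no block. Other settings in which some of them passed are given at the end. With the slide as a block, Stap1 and Fkbp11 of the genes named here had an adjusted p under 0.05 in limma. Of 27 other signalling genes of the receptor, 21 were lower and 6 higher by mean, with a median of -0.45 (-0.21 without vehicle 2). At an unadjusted p under 0.05 in limma, 8 were lower and 1 higher, against 4.48% and 7.24% of all genes and transcripts. Rasgrp3, an activator of RAS, Cd180, a Toll-like receptor relative, and Lat2, an adaptor, did not overlap between the groups, with differences of -1.12, -1.01 and -1.17 and adjusted p-values from 0.153 to 0.195.

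Among 17 other identity genes of B cells, 15 were lower by mean and 7 reached an unadjusted p under 0.05 in limma, all lower, against 4.48% of all genes and transcripts. The median was -1.28, and it was -0.87 without vehicle 2 and -0.22 without vehicle 1 and vehicle 2. Cr2, the complement receptor of B cells and follicular dendritic cells, differed by -3.24 (adjusted p = 0.385), with slide differences of -4.90 and 0.09. Stap1, an adaptor of B cells and myeloid cells, stood at 0.84, 1.03 and 0.01 with vehicle and at -1.36, -0.95 and -1.42 with propolis, without overlap, and differed by -1.87 (adjusted p = 0.0641, or 0.0403 with the slide as a block). Cd83, an activation marker, and Ralgps2, an exchange factor, also did not overlap and differed by -1.07 each, with adjusted p-values of 0.209 and 0.399.

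Of 6 tested germinal centre genes, 5 were lower by mean, and the median was -0.52 (-0.25 without vehicle 2 and, apart from that, -0.96 without vehicle 3). Rgs13, a regulator of chemokine signalling listed here with germinal centre genes, stood at -3.84, -1.87 and -3.24 in vehicle 1, 2 and 3. Vehicle 3 was thus above vehicle 1, whereas the mean of the largely B-restricted members was lower in vehicle 3. The cells that carried its signal were not identified. Rgs13 was well above background on 3 vehicle arrays and on no propolis array, so that it was at least 6.39-fold higher with vehicle (adjusted p = 0.0591 in limma). This bound sets the vehicle mean against the detection limit of the propolis arrays, taken as the dimmest signal well above background on each, or against the gene itself where it was brighter. Gcsam and Nuggc, both of germinal centre B cells, overlapped and differed by -0.68 and -0.36.

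Of 12 other plasma cell genes, 7 were lower and 5 higher by mean, with a median of -0.15. Slamf7, a receptor on plasma cells and other leukocytes, did not overlap and differed by -1.22 (adjusted p = 0.0763), and Txndc5, a disulphide isomerase, did not overlap in the other direction and differed by 0.69 (adjusted p = 0.208). Fkbp11, a prolyl isomerase of secretory cells, and Pim2, a survival kinase, overlapped and differed by 2.14 and -0.70. For Fkbp11 the adjusted p was 0.470, or 0.0318 with the slide as a block. All 4 tested genes listed for B-1 cells were lower by mean. Zbtb32 differed by -1.27 without overlap (adjusted p = 0.0997 in limma), and Cd5, Spn and Bhlhe41 by -0.87, -0.71 and -0.08 with overlap. Cd5 was highest in vehicle 2 and then vehicle 1, as both the restricted members and the T cell genes were by mean. In this unsorted fraction the cells that expressed these genes were not identified, so a change in B-1 cells was not shown. Only 2 of 5 precursor genes were measured, Vpreb1 and Dntt, and they differed by 0.44 and -0.48.

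Of 7 tested survival and homing factors, Tnfsf13b, which encodes BAFF, was higher on every propolis array by 0.22 on average (adjusted p = 0.680). Lta, a lymphotoxin chain, was lower on every propolis array by -1.55 on average (adjusted p = 0.405). Cxcl13, the chemokine of B cell follicles, and Ltb, the other lymphotoxin chain, overlapped and differed by -2.06 and -0.98. Cxcl13 was highest in vehicle 1, at 2.45, against 0.46 in vehicle 2 and 0.42 in vehicle 3, and Ltb was highest in vehicle 2.

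Genes of other cell types were set beside the members on each array. The 12 T cell genes had mean levels of 1.57, 2.02 and 0.63 with vehicle and 0.14, 0.60 and 1.09 with propolis. Of the 12, 10 were higher in both vehicle 1 and vehicle 2 than on any other array, against 3621 of all 25777. Cd3e and Cd3d, subunits of the T cell receptor complex, differed by -0.57 and -0.67. The 4 tested of 7 lymph node stroma and high endothelium genes had means of 0.68, 0.02 and 0.67 with vehicle and -0.01, -0.52 and 0.25 with propolis. Their mean was not highest in vehicle 2, the array with the highest B cell levels. It was highest in vehicle 1, the array with the next highest B cell levels, and about as high in vehicle 3, where B cell levels were low. Of that list, Madcam1, the addressin of high endothelium, differed by -1.13 without overlap, Chst4 by -1.12 with overlap, and Glycam1 was too dim to enter. The part of lymph node tissue in the levels of the members was not tested.

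The 5 tested of 10 acinar genes, among them Amy2a5 and Cpb1, had a mean of 4.90 in vehicle 2, -3.06 in vehicle 1 and -2.66 in vehicle 3, so vehicle 1, where the restricted members were also high, was within the range of the arrays low in acinar genes. The 10 tested of 12 intestinal genes, among them Fabp2 and Vil1, had a mean of 4.77 in vehicle 3, where the restricted members were low. Plasmacytoid dendritic cell genes, 5 of 5 tested with Siglech and Ccr9 among them, had means of 2.93, 2.79 and 2.42 with vehicle and 2.06, 2.54 and 2.44 with propolis. The 10 tested macrophage genes, Adgre1 and Csf1r among them, had means between 3.68, in vehicle 2, and 4.16, in vehicle 1. Adipose progenitor genes, Pdgfra and Dpp4 first among them, which check the tissue label, had means between 5.46 and 5.75 on all arrays. Means of dendritic cell genes such as Flt3 and Zbtb46 were -0.02, 0.44 and -0.08 with vehicle and -0.71, -0.53 and -0.12 with propolis, and those of neutrophil genes such as S100a8 and S100a9 were between 0.40 and 2.26 with vehicle and between 0.96 and 2.11 with propolis. Adipocyte genes such as Adipoq and Plin1 lay between 2.86 and 3.66 with vehicle and between 1.94 and 2.76 with propolis, and mesothelial genes such as Msln and Upk3b between 0.03 and 1.30 with vehicle and between 2.06 and 3.01 with propolis, so neither list overlapped between the groups. The part of these other cells in the levels of the members was not tested.

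**Figure D5:**
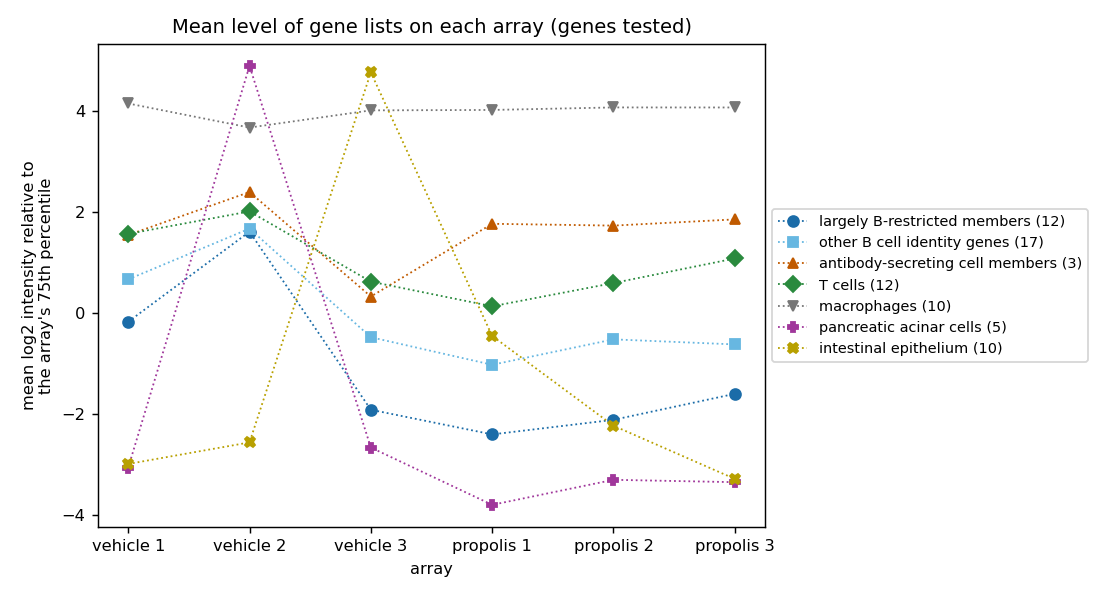
Points are the mean log2 level, relative to each array's 75th percentile, of the tested genes of 7 lists on each of the 6 arrays, with the number of genes in brackets and dotted lines joining one list. B-restricted members and other B cell identity genes are highest in vehicle 2 and then vehicle 1, as T cell genes are, while acinar genes reach 4.90 in vehicle 2 and intestinal genes 4.77 in vehicle 3.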

How the data were processed

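Per the submitters' processing notes, 1-colour Agilent arrays were read with Feature Extraction 10.7.3.1. Per the file headers, the scanner tables hold processed signals, a background-corrected intensity on a linear scale. The series table deposited with them holds log2 values near 0 at each array's 75th percentile. It served as an alternative. Processed signals were turned to log2, non-uniform spots dropped, replicate spots averaged and each array's 75th percentile subtracted. To enter, a probe had to be well above background on 3 or more arrays of 6; this left 34786 of 55681, and the brightest stood for its gene. Symbols came from accessions matched to RefSeq's GRCm38.p6 table, and 28446 probes had none.

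The comparison used limma 3.58.1 (R 4.3.3; lmFit and eBayes, no block, two-sided, Benjamini-Hochberg over all, threshold 0.05). An exact permutation test of 3 against 3 arrays cannot give a p below 0.1. Arrays give no read depth, and their number limits the precision. The genes, lists and alternatives were chosen with earlier results of these data known. Named are all members, as many as 4 genes with the lowest p of each pathway list, and the first 2 tested genes of each cell type list; some genes that the rule selects are not reported here. Alternatives covered scaling, background correction by normexp on median signals with an offset of 50, filters, probe rule, spot flags, slide and replicate block, slide 1 alone, variance model, array weights, threshold and arrays left out. The fit was tried on simulated arrays of independent values with known changes added. Those arrays had no high levels of acinar, intestinal or B cell genes on single arrays, so the trial does not cover that feature of the data.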

Additional observations from a re-analysis of the deposited data

How the results depend on the processing

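Over 20 settings, 19 of the 30 members kept their direction in every one. No member passed the test in any setting that kept the threshold, except 4 with array weights, namely Faim3, Ms4a1, Syk and Blk. A rule of 2-fold with an unadjusted p under 0.05 took in 5 members. Of all genes and transcripts, 215 passed in limma, against 106 with no filter on dim probes, 3231 with array weights, 1285 under the 2-fold rule, 313 with the slide as a block, and 0 on slide 1 alone, without vehicle 2 and vehicle 3, or without vehicle 1 and vehicle 2. Leaving out 1 array gave 11 to 94. Stap1 passed with normexp (adjusted p = 0.0381) and with a trended, robust variance (0.0472), and Rgs13 with the latter (0.0467). Both, and other named pathway genes, passed with array weights. With the replicate number as a block 73 passed, of which 0 were members. Same-numbered arrays deviated together at correlations of 0.036, 0.291 and 0.135, so the numbers were not taken as pairs.

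Leaving out vehicle 1 and vehicle 2, chosen after seeing the data, moved the median difference to -0.11 for the members and to -0.19 for the largely B-restricted ones. It turned the sign of Cd79b (0.12), Cd22 (0.18), Cd72 (0.042), Fcrl1 (0.57), Lyn (0.088), Bank1 (0.13), Pou2af1 (0.79), Bach2 (0.17), Mzb1 (1.44) and Prdm1 (0.044), and of Cd5 (0.13), Dntt (0.70), Ltb (0.15), Nuggc (0.90) and Cd3d (0.068). Without vehicle 1 and vehicle 2, 16 of the 30 members were lower. Over all genes and transcripts 11140 of 25777 were lower there, with a median of 0.083. The turned values of Cd72, Lyn and Prdm1 were no larger than about that shift. Jchain was -0.15 on slide 1 alone. Bhlhe41 was 0.10 with quantile normalization and 0.17 without vehicle 2 and vehicle 3, where Nuggc was 0.00025. With 1 array left out, the differences ran from -0.89 to 0.60 for Mzb1, -0.076 to 0.84 for Jchain, -0.54 to 0.28 for Bhlhe41 and -0.99 to 0.45 for Nuggc. The cause of these moves was not tested in any setting. Pax5, Blk on 2 arrays and Rgs13 were limited by signal over background.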
